A study of Rattus norvegicus with 10 samples.

Results

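This account covers 37 genes of the cardiac extracellular matrix in rat: collagens, the non-collagen fibres fibronectin, fibrillin, elastin and the fibulins, the lysyl oxidases, the enzymes and the chaperone that build collagen inside the cell, and 4 proteoglycans. They were taken by symbol from a list of matrix genes, as those present both in the tissue table of 31580 genes and in the nuclear matrices, and 36 of the 37 had enough tissue counts to be tested.

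The tissue was the area at risk (AAR) of the rat heart, the muscle downstream of a ligated left coronary artery. Polyadenylated tissue RNA was sequenced from 2 libraries each of vehicle at 4 h, BT2 at 4 h, vehicle at 24 h and BT2 at 24 h, where BT2 is a compound for which the labels give a code name and no structure. Nuclei of the AAR were profiled at 24 h, with 1 library per treatment and a BT2 dose of 100 mg/kg. All groups carry the injury, and no uninjured heart is among them. For the tissue samples the dose is not stated in the labels used here, nor are strain, sex, age, route or time of dosing for any sample. Sample titles count hours from the ligation, whereas the series text counts them from the injury by ischaemia and reperfusion, so the start of the clock is not settled. No label says whether a group's libraries are different rats, so p-values measure the spread between these libraries.

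Fibrillar collagens form the tension-bearing cables of the heart wall, and network collagens line the vessels and the muscle cells. Each chain is hydroxylated and folded in the endoplasmic reticulum, secreted, and then crosslinked outside the cell by lysyl oxidases. After an infarct, fibroblasts replace lost muscle with such a matrix, preceded by a provisional one that is rich in fibronectin and versican.

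Promoter windows are shown for Col4a1 and Col4a2, which were called at both times and whose windows overlap. They are also shown for the 3 enzyme genes whose windows hold the letters marked below, so each of these has a match by choice. Loxl2, Col14a1 and Eln were called at both times too and are not shown. The windows run from 250 bases before to 50 bases after the annotated start and are from RefSeq (build GRCr8), which held a window for 25 of the 37 genes. The first pair is printed because Col4a1 and Col4a2, which encode the chains of the main collagen IV trimer, are transcribed in opposite directions from starts 77 bases apart, and both transcripts were lower with BT2 at both times. Capitals mark the 176 bases that the 2 windows share, read from opposite strands, at chr16:84885347-84885646 (plus strand, Col4a1) and chr16:84885471-84885770 (minus strand, Col4a2).
Col4a1: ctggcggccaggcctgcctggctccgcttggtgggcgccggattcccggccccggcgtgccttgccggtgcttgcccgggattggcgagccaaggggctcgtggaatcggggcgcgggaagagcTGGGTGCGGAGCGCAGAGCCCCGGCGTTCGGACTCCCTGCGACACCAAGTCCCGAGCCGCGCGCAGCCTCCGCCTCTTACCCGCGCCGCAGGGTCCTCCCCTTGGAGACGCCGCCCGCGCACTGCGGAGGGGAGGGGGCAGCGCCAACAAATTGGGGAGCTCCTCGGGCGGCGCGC
Col4a2: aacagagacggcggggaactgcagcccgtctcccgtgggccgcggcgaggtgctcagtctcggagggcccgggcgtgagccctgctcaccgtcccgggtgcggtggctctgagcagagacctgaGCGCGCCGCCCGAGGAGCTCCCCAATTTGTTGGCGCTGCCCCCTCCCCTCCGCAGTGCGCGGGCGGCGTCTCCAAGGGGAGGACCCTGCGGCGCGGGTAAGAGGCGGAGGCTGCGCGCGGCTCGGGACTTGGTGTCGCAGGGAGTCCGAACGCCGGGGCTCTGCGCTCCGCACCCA

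The second set holds enzymes that hydroxylate collagen in the cell: P4ha1 and P4ha2, catalytic subunits of prolyl 4-hydroxylase, and Plod2, a lysyl hydroxylase. P4ha1 was lower with BT2 at both times and Plod2 at 24 h, whereas P4ha2 passed the test at neither time. Capitals mark TACGTG on either strand (its reverse complement is CACGTA), letters that hold the core of the hypoxia response element. These letters were looked for after the tissue values were known. They occur in 3 of the 25 windows, those printed here, and in 3.49% of 33469 windows of the same length, and a match is not evidence of a bound factor. The windows lie at chr20:27844796-27845095 (P4ha1), chr10:38743644-38743943 (P4ha2) and chr8:101964068-101964367 (Plod2), all on the plus strand.
P4ha1: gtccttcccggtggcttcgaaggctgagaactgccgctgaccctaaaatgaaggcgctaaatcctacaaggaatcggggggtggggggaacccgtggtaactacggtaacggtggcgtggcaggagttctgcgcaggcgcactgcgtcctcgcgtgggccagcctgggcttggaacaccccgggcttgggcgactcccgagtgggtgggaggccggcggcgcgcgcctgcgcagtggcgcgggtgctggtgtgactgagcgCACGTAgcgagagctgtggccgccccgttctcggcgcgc
P4ha2: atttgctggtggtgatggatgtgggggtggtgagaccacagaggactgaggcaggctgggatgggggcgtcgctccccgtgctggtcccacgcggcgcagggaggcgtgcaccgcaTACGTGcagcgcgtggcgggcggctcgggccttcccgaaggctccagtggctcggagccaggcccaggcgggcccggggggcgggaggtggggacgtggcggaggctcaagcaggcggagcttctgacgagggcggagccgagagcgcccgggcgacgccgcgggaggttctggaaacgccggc
Plod2: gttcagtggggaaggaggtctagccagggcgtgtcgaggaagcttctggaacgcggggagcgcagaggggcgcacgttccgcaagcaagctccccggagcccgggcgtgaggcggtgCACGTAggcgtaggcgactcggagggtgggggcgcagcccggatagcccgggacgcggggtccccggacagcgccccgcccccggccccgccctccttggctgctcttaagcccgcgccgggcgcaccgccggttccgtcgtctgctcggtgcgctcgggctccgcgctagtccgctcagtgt

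Tissue libraries held between 10397310 and 24480984 counts, and the 37 genes took between 0.707% and 1.63% of them. All 11 cardiomyocyte markers were detected. At 24 h, markers of several cell types differed between the groups. The summed level of 15 fibroblast markers was 1487 and 1355 CPM in vehicle and 3113 and 2934 CPM with BT2, where CPM is the count per 1000000 counts of the library, scaled with TMM factors. Gsn, gelsolin, an actin-binding protein found in many cell types, carried this difference, at 711.3 and 647.0 CPM in vehicle and 2336 and 2156 CPM with BT2, and the other markers summed to 776.0 and 708.5 against 777.3 and 777.3 CPM. Of these markers 14 were tested, 6 were called higher and 1 lower (Postn), Pdgfra stood at 140.1 and 115.6 against 141.0 and 129.5 CPM, and Cd248 was at 0 in all libraries. The summed level of 13 macrophage markers was 3256 and 3949 CPM in vehicle and 1221 and 1432 CPM with BT2, and that of 6 proliferation markers was 223.6 and 206.2 against 56.3 and 89.4 CPM. Cardiomyocyte markers summed to 20067 and 20047 CPM in vehicle and to 45049 and 36846 CPM with BT2. At 4 h, neutrophil markers summed to 604.1 and 1883 CPM in vehicle and 202.6 and 305.3 CPM with BT2, so vehicle replicate 2 stood apart there. In tissue RNA, fewer cells of a type and less RNA per cell cannot be told apart, and the part of these marker levels in the results on matrix genes was not tested.

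The question put to the tissue data was whether matrix transcripts differed between BT2 and vehicle at 4 h and at 24 h, and whether the difference changed between the times. At 4 h, 2 of the 36 genes were higher with BT2 and 5 were lower by edgeR's quasi-likelihood test (Benjamini-Hochberg adjusted p under 0.05). Over all 15216 genes tested, 6.67% were called higher and 9.73% lower, 16.4% in all, against 19.4% of the matrix genes, so the share of matrix genes called was near that of all genes. At 24 h, 5 of 36 were higher and 18 were lower, 63.9% in all, against 39.5% of all genes (18.9% higher and 20.7% lower). The median log2 fold change of the matrix genes was -0.20 at 4 h and -0.59 at 24 h, while that of all genes was 0.00 and -0.01. The matrix genes were chosen with earlier results of these data known, so these shares and medians describe them and do not test the set. At 24 h both BT2 libraries lay below both vehicle libraries for 23 of the 36 genes, against 39.5% of all genes. They lay above them for 7, against 37.7% of all genes. At 4 h these counts were 16 below (30.1% of all genes) and 7 above (29.2%).

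**Figure D1:**
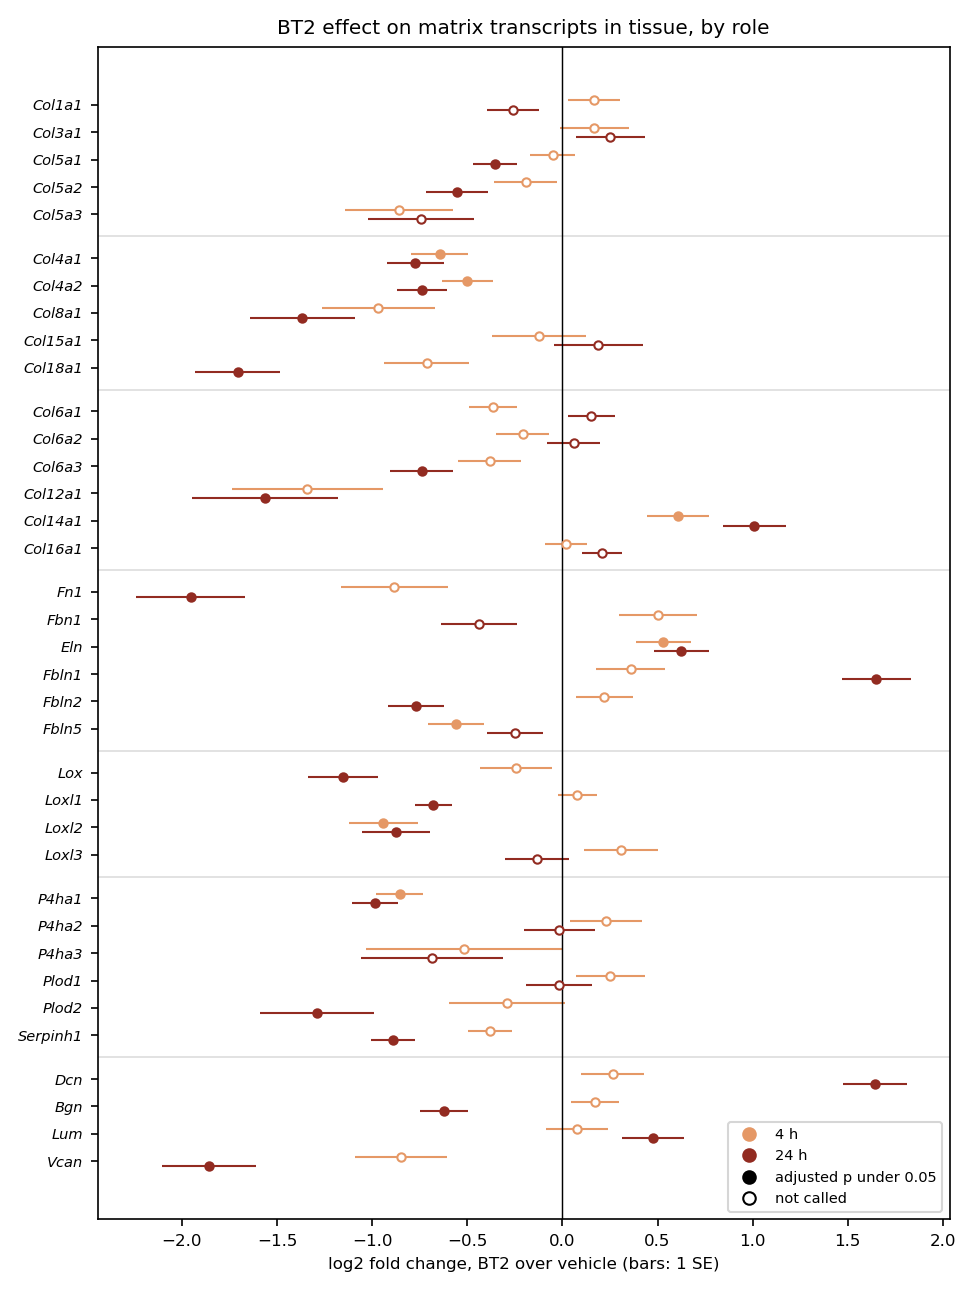
Log2 fold change of BT2 over vehicle in tissue for each of the 36 tested genes, at 4 h (orange) and 24 h (dark red), grouped by role with collagens at the top and proteoglycans at the bottom. Bars are 1 SE, filled points passed the test (adjusted p under 0.05), and most filled points at 24 h lie left of 0 (18 lower, 5 higher).

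Among the fibrillar collagens, transcripts of the major cables were not called at either time, and 2 of the 3 collagen V chains were lower at 24 h. Col1a1, the alpha 1 chain of collagen I, stood at 425.8 and 342.4 CPM in the vehicle libraries and at 440.5 and 421.2 CPM with BT2 at 4 h. At 24 h it stood at 748.7 and 881.2 CPM in vehicle and 707.9 and 652.4 CPM with BT2. The groups overlapped at 4 h, and at 24 h both BT2 libraries lay just under both vehicle libraries, with a log2 fold change of -0.26 ± 0.14 (SE, edgeR adjusted p = 0.166). Col3a1, collagen III of thinner and more compliant fibres, stood at 1244 and 940.6 CPM in vehicle and 1248 and 1203 CPM with BT2 at 4 h, and at 1848 and 1503 against 2225 and 1765 CPM at 24 h. Its groups overlapped at both times (24 h log2 fold change 0.25 ± 0.18, edgeR adjusted p = 0.298). Col5a2, a chain of collagen V, which starts and limits fibril growth, stood at 259.4 and 181.6 CPM in vehicle and 198.6 and 186.8 CPM with BT2 at 4 h. At 24 h its levels were 355.0 and 314.4 CPM in vehicle and 214.4 and 241.4 CPM with BT2. It overlapped at 4 h and was lower at 24 h, by a log2 fold change of -0.55 ± 0.16 (edgeR adjusted p = 0.029), a call that was lost when any 1 of the 24 h libraries was left out (adjusted p 0.0591 without BT2 replicate 2 to 0.149 without BT2 replicate 1, with 0.0665 without vehicle replicate 2 and 0.142 without vehicle replicate 1 between them). Col5a1, its partner chain, was also lower at 24 h (-0.35, edgeR adjusted p = 0.0397, called in 2 of 8 fits without 1 library), and Col5a3 had -0.86 at 4 h and -0.74 at 24 h without passing. Col1a2, the second chain of collagen I, was not tested: it had 1 count in 1 BT2 library at 24 h and 0 in the other tissue libraries, with 8 and 15 UMIs in the vehicle and BT2 nuclei. Such a level beside that of Col1a1 cannot be told apart from a fault of counting, so no value of Col1a2 is used.

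Collagens of basement membranes and of short-chain networks were lower with BT2 in 4 of 5 cases at 24 h and in 2 of 5 at 4 h, and 0 were higher. Col4a1, whose shared promoter is printed above, stood at 2345 and 1980 CPM in vehicle and 1524 and 1240 CPM with BT2 at 4 h. By 24 h it was at 2015 and 1803 CPM in vehicle and 1097 and 1138 CPM with BT2. No BT2 library reached a vehicle library at either time. The log2 fold change was -0.65 ± 0.15 at 4 h (edgeR adjusted p = 0.0257) and -0.77 ± 0.15 at 24 h (edgeR adjusted p = 0.00504). The 4 h call was lost without BT2 replicate 2 (adjusted p = 0.162), vehicle replicate 1 (0.061) or vehicle replicate 2 (0.056) of that time. Col4a2 moved with it, at -0.50 and -0.74 (edgeR adjusted p = 0.0388 and 0.00402, the first called in 0 of 8 fits without 1 library), and the ratio of Col4a1 to Col4a2 stayed between 1.40 and 1.65 in all 8 libraries. Col18a1, whose C-terminal fragment is the angiogenesis inhibitor endostatin, stood at 132.0 and 113.9 CPM in vehicle and 86.0 and 63.9 CPM with BT2 at 4 h. At 24 h vehicle reached 295.0 and 340.0 CPM, while BT2 stayed at 76.5 and 118.0 CPM. Its log2 fold change was -0.71 ± 0.22 at 4 h, which did not pass (edgeR adjusted p = 0.0651), and -1.71 ± 0.22 at 24 h (edgeR adjusted p = 0.00146). Col8a1, a network collagen of vessel walls, fell by 1.37 at 24 h (edgeR adjusted p = 0.00724), from 64.2 and 57.3 CPM in vehicle to 18.6 and 28.4 CPM with BT2. Col15a1, a basement membrane collagen related to Col18a1, stayed between 3.77 and 6.31 CPM over all libraries and was not called.

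The beaded-filament and fibril-associated collagens went in different directions. Col6a3, the longest chain of collagen VI, which forms beaded filaments around cells, stood at 328.2 and 231.0 CPM in vehicle and 227.3 and 201.4 CPM with BT2 at 4 h. At 24 h it stood at 586.0 and 601.2 CPM in vehicle and 331.9 and 379.3 CPM with BT2. It was lower at 24 h, by a log2 fold change of -0.74 ± 0.17 (edgeR adjusted p = 0.00953), although the call was lost without BT2 replicate 1 (adjusted p = 0.0686) or vehicle replicate 2 (0.052) of that time. Its partner chains Col6a1 and Col6a2 were not called at 24 h (0.15 and 0.06). The count ratio of Col6a3 to Col6a1 therefore lay at 0.58 to 0.70 in the 4 h libraries, at 1.38 and 1.67 in vehicle at 24 h and at 0.76 and 0.87 with BT2 at 24 h. Col14a1, which binds the surface of collagen fibrils, was the one collagen of this set that was higher with BT2. It stood at 69.6 and 58.0 CPM in vehicle and 83.2 and 110.6 CPM with BT2 at 4 h, and at 39.2 and 33.7 against 78.4 and 68.3 CPM at 24 h. The groups were apart at both times, with log2 fold changes of 0.61 ± 0.16 (edgeR adjusted p = 0.0411) and 1.01 ± 0.16 (edgeR adjusted p = 0.00272). The 4 h call held in 2 of the 8 fits that left out 1 library and was weakest without BT2 replicate 2 of that time (log2 fold change 0.39, adjusted p = 0.214). Col12a1, another fibril-associated collagen, had the lowest fold change at 4 h (-1.34, edgeR adjusted p = 0.059) and fell by 1.56 at 24 h (edgeR adjusted p = 0.0166). Col16a1 was not called at either time (0.02 and 0.21).

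**Figure D2:**
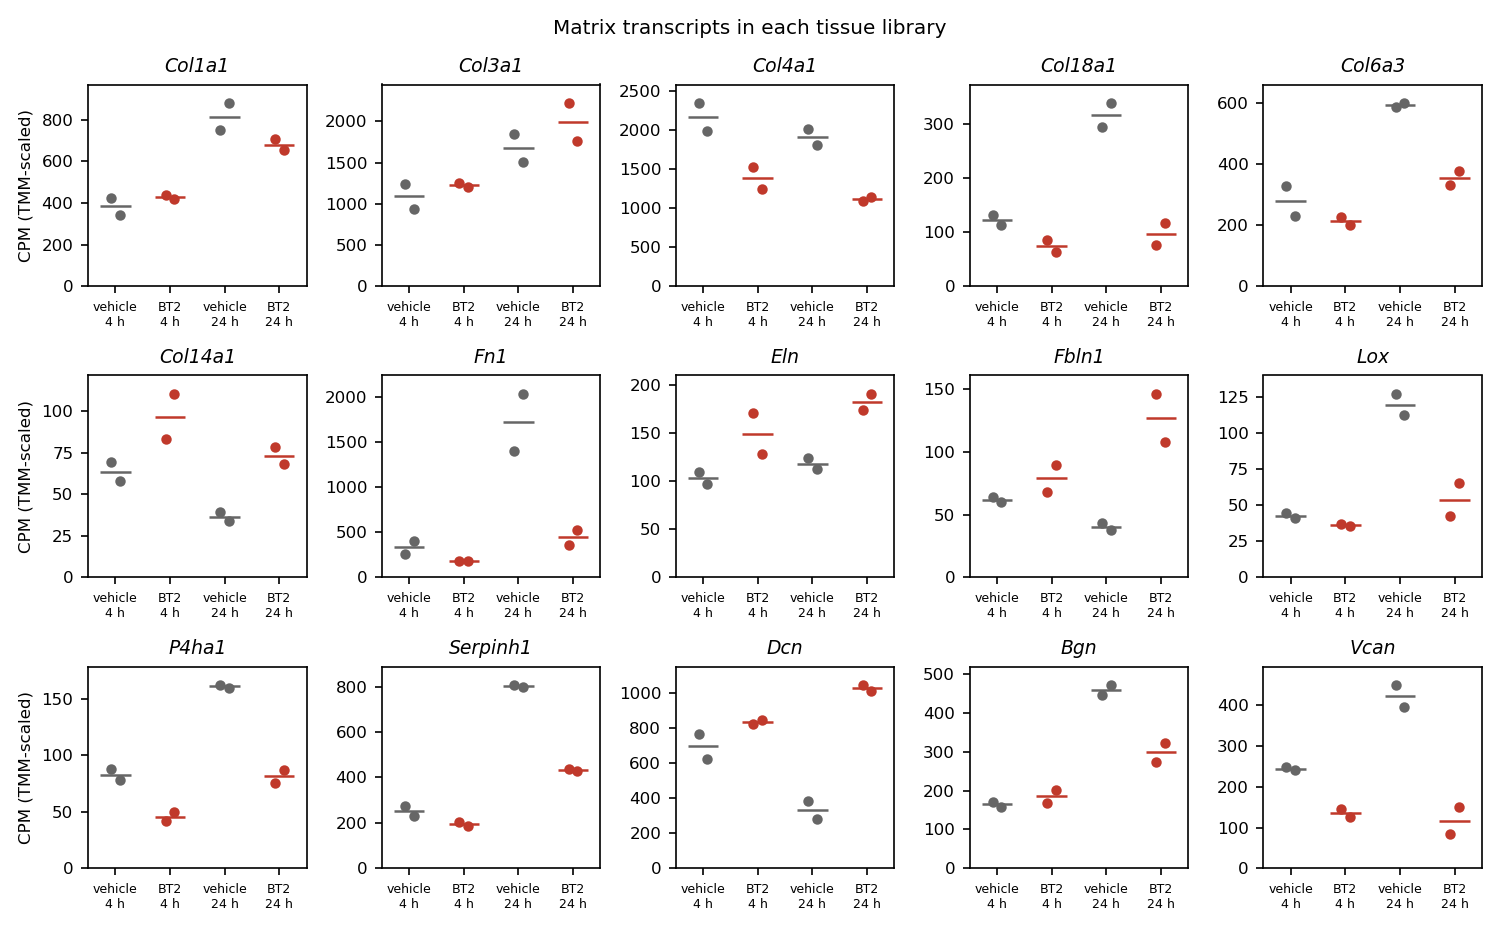
CPM of 15 matrix genes in each tissue library (points, vehicle grey and BT2 red, 2 libraries per group) with the group mean as a line. Fn1, Col18a1, Lox and Vcan rise from 4 h to 24 h in vehicle and lie far lower with BT2 at 24 h, while Dcn and Fbln1 have their highest values with BT2 at 24 h.

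Of the non-collagen fibres, fibronectin was lower with BT2, elastin and fibulin-1 were higher, and fibulin-2 and fibulin-5 were lower at 1 time each. Fn1, fibronectin, an adhesive glycoprotein of plasma and of the provisional matrix, stood at 257.5 and 408.2 CPM in vehicle and 176.6 and 184.2 CPM with BT2 at 4 h. By 24 h it was at 1402 and 2037 CPM in vehicle and 358.2 and 530.0 CPM with BT2. The groups were apart at both times, but the 4 h difference did not pass (-0.88 ± 0.28, edgeR adjusted p = 0.0697) and the 24 h difference did (-1.95 ± 0.29, edgeR adjusted p = 0.00224). At 4 h it passed with the replicate number as a block (adjusted p = 0.0236), with DESeq2 (0.00655) and without vehicle replicate 1 of that time (0.0297). Eln, elastin, which gives vessels their recoil, stood at 109.0 and 97.5 CPM in vehicle and 170.3 and 127.9 CPM with BT2 at 4 h, and at 123.7 and 112.6 against 173.8 and 190.7 CPM at 24 h. It was higher with BT2 at both times, by 0.53 ± 0.15 (edgeR adjusted p = 0.0427) and 0.63 ± 0.14 (edgeR adjusted p = 0.0106). Its 4 h call was lost in each of the 8 fits that left out 1 library (adjusted p 0.0551 without BT2 replicate 1 of 24 h to 0.2 without vehicle replicate 2 of 4 h). Its 24 h call was lost without BT2 replicate 2 (0.053) or vehicle replicate 2 (0.0783) of that time. Fbln1, fibulin-1, which binds elastin and fibronectin, stood at 63.8 and 59.7 CPM in vehicle and 68.1 and 89.7 CPM with BT2 at 4 h, and at 43.5 and 37.3 against 146.1 and 107.7 CPM at 24 h. The 24 h groups were far apart, with a log2 fold change of 1.65 ± 0.18 (edgeR adjusted p = 0.000857).

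Fbln2, fibulin-2, stood at 68.9 and 60.4 CPM in vehicle and 70.4 and 80.0 CPM with BT2 at 4 h, and at 163.0 and 202.8 against 96.6 and 117.6 CPM at 24 h. Both BT2 libraries lay above vehicle at 4 h (0.22 ± 0.15, not called) and below it at 24 h (-0.77 ± 0.15, edgeR adjusted p = 0.00499). Fbln5, fibulin-5, which helps to assemble elastic fibres, stood at 77.1 and 88.4 CPM in vehicle and 61.1 and 51.4 CPM with BT2 at 4 h, and at 59.2 and 53.8 against 53.2 and 41.9 CPM at 24 h. It was lower at 4 h (-0.56 ± 0.15, edgeR adjusted p = 0.0376) and not called at 24 h (-0.25 ± 0.15, edgeR adjusted p = 0.205). The 4 h call was lost without any 1 of BT2 replicate 1 (adjusted p = 0.0548), BT2 replicate 2 (0.194) and vehicle replicate 2 (0.184) of that time, and without either vehicle library of 24 h (0.0626 and 0.0625). Fbn1, fibrillin-1 of microfibrils, was not called at 4 h (0.50) or 24 h (-0.44).

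The crosslinking oxidases were lower with BT2 at 24 h in 3 of 4 cases. Lox, lysyl oxidase, the enzyme that starts the crosslinking of collagen and elastin, stood at 44.8 and 40.9 CPM in vehicle and 36.8 and 35.6 CPM with BT2 at 4 h. At 24 h it stood at 127.2 and 112.4 CPM in vehicle and 42.5 and 65.2 CPM with BT2. The groups did not overlap at either time, and the 24 h difference passed (-1.15 ± 0.18, edgeR adjusted p = 0.00256), whereas that at 4 h did not (-0.24 ± 0.19, edgeR adjusted p = 0.411). Loxl1, which acts on elastin, was near equal at 4 h, at 30.2 and 29.3 CPM in vehicle and 30.6 and 32.2 CPM with BT2, and stood at 111.6 and 99.5 against 64.6 and 67.3 CPM at 24 h. Its 24 h log2 fold change was -0.68 ± 0.10 (edgeR adjusted p = 0.00165). Loxl2, which acts on collagen IV, stood at 68.9 and 48.3 CPM in vehicle and 32.1 and 28.7 CPM with BT2 at 4 h, and at 58.2 and 46.7 against 28.4 and 28.8 CPM at 24 h. It was the oxidase that was lower at both times, by -0.94 ± 0.18 (edgeR adjusted p = 0.0169) and -0.87 ± 0.18 (edgeR adjusted p = 0.00636) on the log2 scale, and its 4 h call was lost without BT2 replicate 2 of that time (adjusted p = 0.101). Loxl3 overlapped between the groups at both times and was not called.

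Among the enzymes that modify and fold collagen inside the cell, 3 of 6 were lower at 24 h and 1 of 6 at 4 h, and 0 were higher. P4ha1, the prolyl 4-hydroxylase subunit whose window is printed above, stood at 87.7 and 78.2 CPM in vehicle and 41.6 and 49.8 CPM with BT2 at 4 h. By 24 h it was at 162.5 and 159.7 CPM in vehicle and 75.7 and 87.1 CPM with BT2. The groups were well apart at both times, by -0.86 ± 0.12 (edgeR adjusted p = 0.0109) and -0.98 ± 0.12 (edgeR adjusted p = 0.00109), and P4ha1 was the only one of the 7 genes called at 4 h that stayed called in all 8 fits without 1 library. P4ha2, which encodes the alternative catalytic subunit, was at 0.23 and -0.02 and was not called, so the count ratio of P4ha1 to P4ha2 was 3.84 and 4.97 in vehicle and 2.18 and 2.24 with BT2 at 24 h. Plod2, whose hydroxylysines allow the stable crosslinks of scar collagen, fell by 1.29 at 24 h (edgeR adjusted p = 0.013, called in 6 of 8 fits without 1 library), from 176.9 and 150.8 CPM to 55.5 and 78.5 CPM, and its groups overlapped at 4 h. Serpinh1, the collagen chaperone HSP47, fell by 0.89 at 24 h (edgeR adjusted p = 0.00124), from 808.0 and 796.8 CPM to 436.3 and 429.6 CPM. P4ha3 and Plod1 were not called at either time, and P4ha3 was below 2 CPM in all libraries.

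The proteoglycans split into a pair that was higher and a pair that was lower at 24 h, and none of the 4 was called at 4 h. Dcn, decorin, which coats collagen fibrils and binds TGF-beta, stood at 768.1 and 625.2 CPM in vehicle and 823.7 and 849.1 CPM with BT2 at 4 h. At 24 h it stood at 381.4 and 279.0 CPM in vehicle and 1047 and 1012 CPM with BT2. The 24 h groups were far apart, with a log2 fold change of 1.64 ± 0.17 (edgeR adjusted p = 0.000681). Lum, lumican, of the same family, was higher by 0.47 at 24 h (edgeR adjusted p = 0.0473, called in 4 of 8 fits without 1 library). Bgn, biglycan, which is close to decorin in sequence, went the other way: it stood at 171.6 and 158.3 CPM in vehicle and 168.9 and 202.2 CPM with BT2 at 4 h, and at 445.5 and 472.1 against 274.4 and 322.1 CPM at 24 h. Its 24 h log2 fold change was -0.62 ± 0.13 (edgeR adjusted p = 0.0064). Vcan, versican, the large hyaluronan-binding proteoglycan of provisional matrix, stood at 247.7 and 241.8 CPM in vehicle and 145.9 and 126.4 CPM with BT2 at 4 h. By 24 h it was at 450.6 and 397.3 CPM in vehicle and 83.5 and 150.3 CPM with BT2. The groups were apart at both times, by -0.85 ± 0.24 at 4 h, just outside the threshold (edgeR adjusted p = 0.052), and -1.86 ± 0.25 at 24 h (edgeR adjusted p = 0.00161). The count ratio of Vcan to Dcn was 1.18 and 1.42 in vehicle and 0.08 and 0.15 with BT2 at 24 h. At this time 6 of 14 fibroblast markers were higher with BT2 and 1 lower, with sums that were alike once Gsn was left out, and 7 of 13 macrophage markers were lower and 1 higher. Their part in these values was not tested.

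Between 4 h and 24 h many of the matrix genes rose in both treatments. These comparisons share libraries with those of BT2 and vehicle above. In vehicle 19 of 36 genes were higher at 24 h and 5 lower, against 23.3% and 23.8% of all genes, 47.1% in all, with a median log2 change of 0.71. Both 24 h libraries lay above both 4 h libraries for 22 genes (38.4% of all genes) and below them for 8 (37.7%). With BT2 15 were higher and 2 lower, against 11.7% and 11.6% of all genes, 23.3% in all, with a median of 0.42, and the median of all genes was 0.01 and 0.02. Fn1 had the largest rise in vehicle, 2.37 ± 0.29 (edgeR adjusted p = 0.000599), beside 1.30 ± 0.28 with BT2 (edgeR adjusted p = 0.0181). Loxl1 rose by 1.83 ± 0.10 and 1.07 ± 0.10, Serpinh1 by 1.66 and 1.15, and Bgn by 1.48 and 0.68. Col1a1 rose by 1.09 ± 0.14 in vehicle and 0.66 ± 0.14 with BT2. In vehicle, Dcn, Col14a1, Fbln1, Fbln5 and Lum were lower at 24 h than at 4 h, with Dcn at -1.08 ± 0.17 (edgeR adjusted p = 0.00128) and Fbln1 at -0.61 ± 0.18 (edgeR adjusted p = 0.025). With BT2, Dcn was not called (0.30 ± 0.16) and Fbln1 was higher (0.68 ± 0.18, edgeR adjusted p = 0.0299). Both calls of Fbln1 were lost without 1 library of the times compared, in vehicle without any of 24 h replicate 2 (adjusted p = 0.139), 4 h replicate 1 (0.0902) and 4 h replicate 2 (0.0663), and with BT2 without 24 h replicate 1 (0.143) or 4 h replicate 1 (0.149). With BT2, 4 genes instead of 15 were called higher without 4 h replicate 1, 8 without 4 h replicate 2 and 6 without 24 h replicate 2, and the rise of Fn1 was not called without any 1 of these (adjusted p = 0.0976, 0.0728 and 0.0932).

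**Figure D3:**
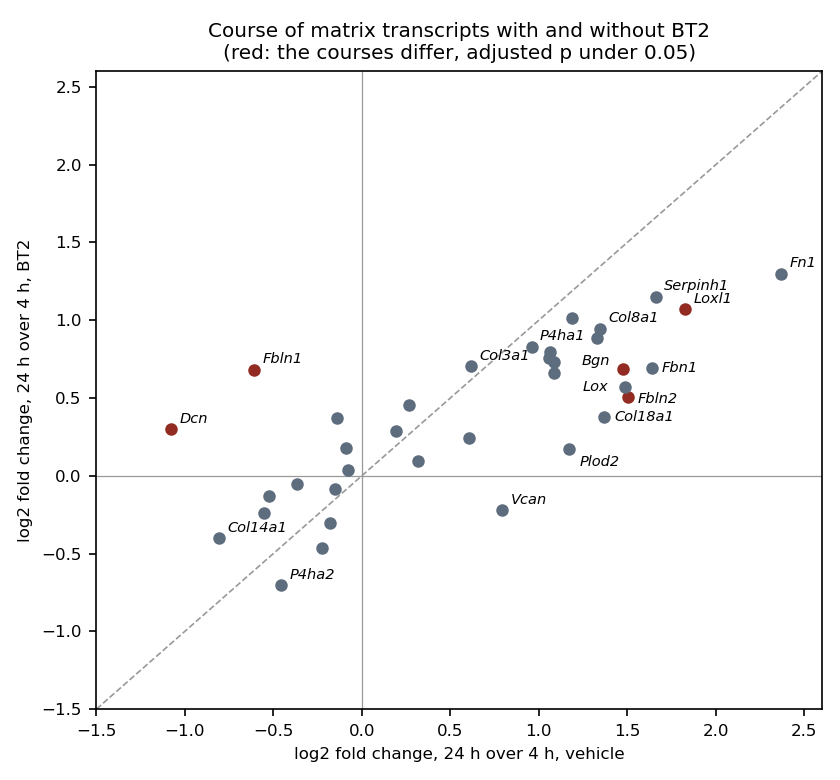
Log2 fold change from 4 h to 24 h in vehicle (horizontal) and with BT2 (vertical) for each of the 36 tested genes, with the line of equal change dashed. Most genes lie right of 0 and below the dashed line, and the 5 red genes are those whose BT2 effect differed between the times: Dcn and Fbln1 above the line, Loxl1, Bgn and Fbln2 below it, of which 0 held their call in all 8 fits without 1 library.

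The difference between the BT2 effects at 24 h and at 4 h was itself called for 5 of 36 genes, 2 higher and 3 lower, against 4.72% and 2.43% of all genes, 7.14% in all. It was 1.38 ± 0.23 for Dcn (edgeR adjusted p = 0.0215) and 1.29 ± 0.25 for Fbln1 (edgeR adjusted p = 0.0299). It was -0.99 ± 0.21 for Fbln2 (edgeR adjusted p = 0.0338), -0.79 ± 0.18 for Bgn (edgeR adjusted p = 0.0394) and -0.76 ± 0.14 for Loxl1 (edgeR adjusted p = 0.0255). Of these 5 calls 0 held in all 8 fits without 1 library, and 0 of the 36 genes were called without BT2 4 h replicate 1, BT2 4 h replicate 2, vehicle 24 h replicate 2 or BT2 24 h replicate 1. For the other 31 genes the lowest adjusted p was 0.0737, that of Lox (-0.91 ± 0.26), and Fn1 (-1.07 ± 0.39), Vcan (-1.01 ± 0.34) and Col18a1 (-0.99 ± 0.31) did not pass. DESeq2 did call the difference for these genes (adjusted p = 0.0288 for Fn1, 0.0214 for Vcan, 0.0172 for Col18a1 and 0.0194 for Lox). Leaving out BT2 24 h replicate 2 called it for Vcan (edgeR adjusted p = 0.0204), Col18a1 (0.0371) and Lox (0.0248), the replicate block for Fn1 (0.0466), and no filter on low counts for Lox (0.0218). The effects at 4 h and 24 h come from separate libraries. Their log2 fold changes had the same sign in 69.4% of the matrix genes and in 68.5% of all genes. Col4a1, Col4a2, Loxl2 and P4ha1 were called lower at both times, Col14a1 and Eln were called higher at both, and 12 genes were called at neither.

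Other genes of the same processes were set beside these, from lists of collagens, collagen processing, basement membranes, microfibrils and small proteoglycans that are not among the 37. Over all genes tested, 18.9% were called higher and 20.7% lower at 24 h, and 6.67% and 9.73% at 4 h. The counts of these lists were not tested against those shares. Of 19 tested genes of collagen processing, 6 were lower and 2 higher at 24 h. P4hb, the beta subunit that completes prolyl 4-hydroxylase, fell by 0.89 ± 0.10 (edgeR adjusted p = 0.000931), from 950.4 and 986.3 CPM in vehicle to 500.5 and 546.2 CPM with BT2. Adamts2, the protease that removes the N-propeptide of procollagen, rose by 0.79 ± 0.13 (edgeR adjusted p = 0.00304). At 4 h 2 of these genes were lower, with the oxidase Loxl4 at -1.59 ± 0.33 (edgeR adjusted p = 0.0233), and 0 were higher. Of 15 other collagens tested, 10 were higher and 0 lower at 24 h, with a median of 1.28. Col11a2, a minor fibrillar collagen, had the smallest p (1.67 ± 0.26, edgeR adjusted p = 0.00223), at 2.33 and 2.69 CPM in vehicle and 9.09 and 6.93 CPM with BT2. These collagens together made up 91.0 and 89.4 CPM in vehicle and 172.5 and 142.6 CPM with BT2, against 13866 and 13440 CPM and 10196 and 10184 CPM for the 37 genes. At 4 h 0 of the 15 were called, with 3 at an unadjusted p under 0.05.

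Of 12 other basement membrane genes, 3 were higher and 1 lower at 24 h, against 18.9% and 20.7% of all genes. These included Lama2, the laminin chain of muscle, at 0.98 ± 0.11 (edgeR adjusted p = 0.000891) and Lama3 at -0.85 ± 0.29 (edgeR adjusted p = 0.0459). At 4 h 2 were higher, with the proteoglycan agrin (Agrn) at 0.76 ± 0.15 (edgeR adjusted p = 0.0176), and 0 lower. Col4a1 and Col4a2 were called lower at 24 h, as was 1 of these 12 genes. Of 12 other microfibril genes, 4 were higher and 4 lower at 24 h, and those with the smallest p in each direction were Efemp1 (fibulin-3) at 1.42 ± 0.14 (edgeR adjusted p = 0.000663) and Efemp2 (fibulin-4) at -0.70 ± 0.13 (edgeR adjusted p = 0.004). The fold changes of this list ran from -1.26 for Emilin2 to 1.72 for Mfap2, which was at 1.60 and 1.53 CPM in vehicle and 5.11 and 5.22 CPM with BT2. At 4 h the microfibril protein Mfap2 was the one called, at 0.82 ± 0.22 (edgeR adjusted p = 0.041). Of 7 other small proteoglycan and hyaluronan genes 2 were lower and 0 higher at 24 h, and Has1, a hyaluronan synthase, fell by 1.42 ± 0.21 (edgeR adjusted p = 0.00183). At 4 h 0 of these 7 were called, with 1 at an unadjusted p under 0.05.

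Nuclei were used to see which cells held the matrix transcripts at 24 h. The vehicle library kept 11372 nuclei with a median of 2465 UMIs and the BT2 library 10324 with a median of 2157, and the libraries shared 37 barcodes. With 1 library per group there is no test, and intervals (exact, 95%) cover counting error alone. Clusters were made without the 37 genes and the other listed matrix genes, so that none of them defines a cluster, and doublets were not removed. Fibroblast-like nuclei fell into cluster 8, with Scara5, Tcf21 and Pi16 among its markers (533 nuclei in vehicle and 1481 with BT2), and cluster 10, with Postn and with all 6 proliferation markers (854 and 1130 nuclei). Since cluster 10 held 4 of the 15 fibroblast markers beside all those of proliferation, the clusters are compared one by one. Together these clusters made up 12.2% of the vehicle and 25.3% of the BT2 nuclei.

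Fibroblast-like nuclei held the largest share of UMIs among named types for 28 of 36 genes in vehicle and 32 with BT2. The 6 unnamed clusters held 35.8% of the UMIs of matrix genes in vehicle and 19.8% with BT2, beside 37.3% and 57.2% in fibroblast-like nuclei. The unnamed clusters held 36.70% of all UMIs in vehicle and 21.01% with BT2, near their shares of the matrix UMIs. With these clusters counted as a type, they led for 11 of 36 genes in vehicle and for 0 with BT2. Cluster 1, which had 5 of 12 pericyte or smooth muscle markers, was among the unnamed. For Col1a1 the share of fibroblast-like nuclei was 57.3% in vehicle and 73.0% with BT2, beside 12.8% and 28.1% of all UMIs. Fibronectin was an exception, since monocyte or macrophage-like nuclei held 34.5% and 32.0% of its UMIs and fibroblast-like nuclei 4.93% and 19.1%, while the unnamed clusters held 43.4% and 27.1% of Fn1. Vcan had 27.9% and 20.6% of its UMIs in monocyte or macrophage-like nuclei. Col18a1 was led by cardiomyocyte-like nuclei (32.9% and 29.6%), and Fbln5 by endothelial-like ones (43.8% and 46.7%). In vehicle, elastin was also led by endothelial-like nuclei (44.2%). Col4a1 and Col4a2 were spread over fibroblast-like, endothelial-like and pericyte or smooth muscle-like nuclei, with 1664 and 2071 CPM of Col4a1 in the last. Nuclei of types that should lack a gene show its background. In cardiomyocyte-like nuclei, with median depths of 6316 and 3678 UMIs, Col1a1 was at 24.8 CPM in vehicle and higher, at 51.5 CPM, with BT2. It was at 271.5 and 230.6 CPM in cluster 8 and at 635.5 and 611.0 CPM in cluster 10. Doublets were not removed, so free RNA and doublets cannot be told apart in this background. Its part in the nuclear ratios was not tested.

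**Figure D4:**
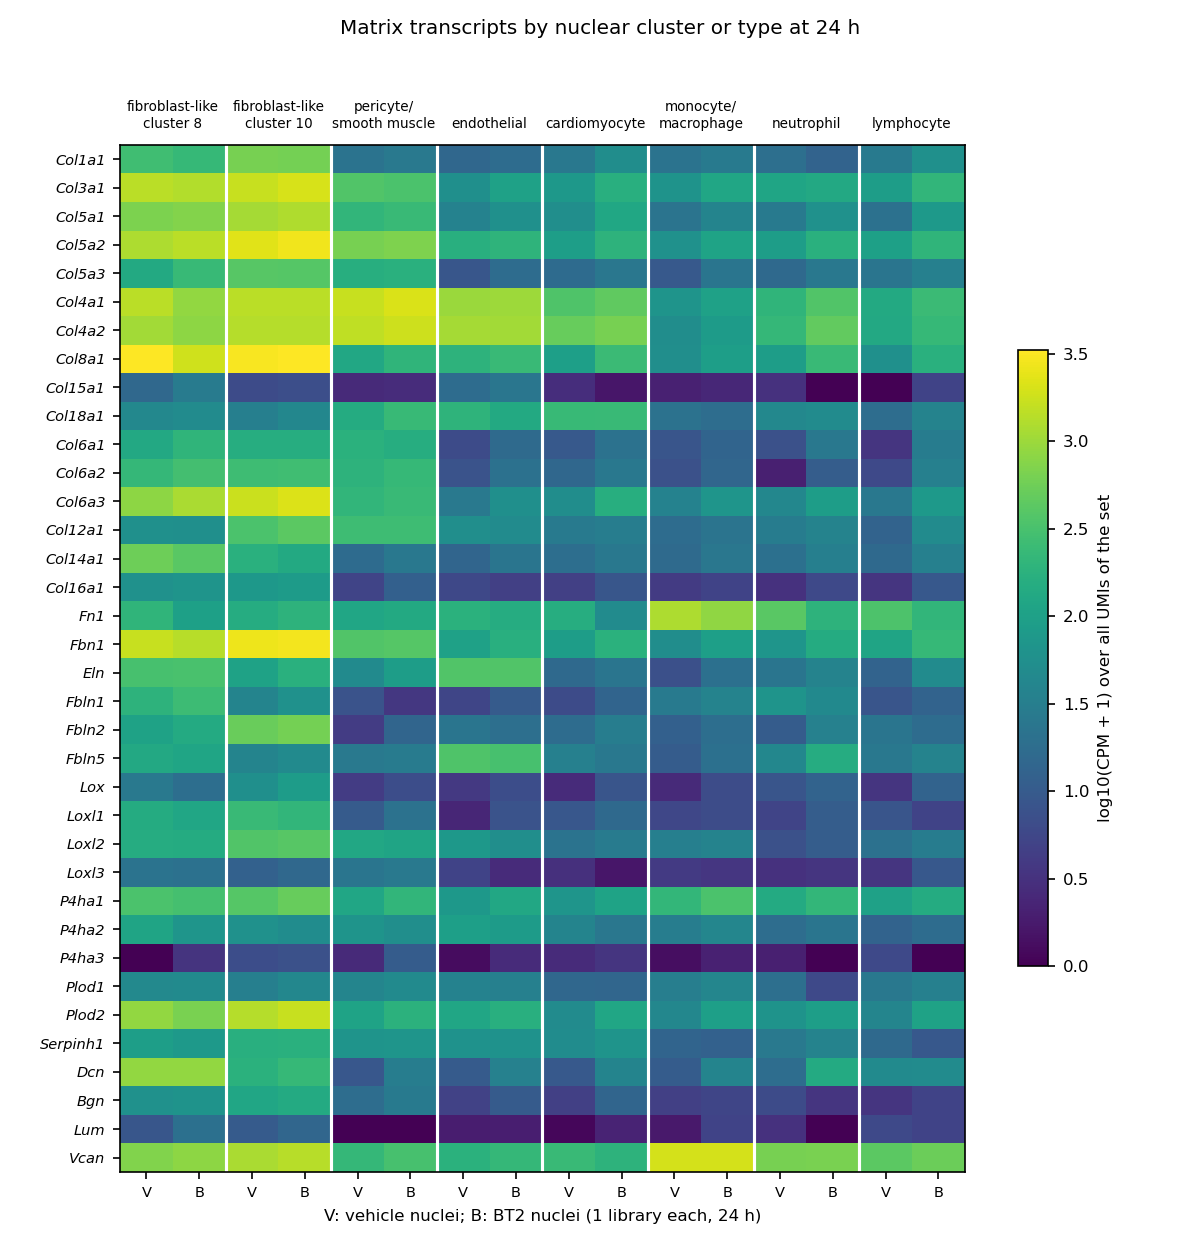
Level of 36 matrix genes, as log10(CPM + 1) over all UMIs of a set, in the 2 fibroblast-like clusters and in 6 other nuclear types, with vehicle (V) and BT2 (B) side by side. Most fibrillar collagens and Fbn1 are brightest in the fibroblast-like clusters, Fn1 and Vcan in monocyte or macrophage nuclei, and Eln and Fbln5 in endothelial nuclei.

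In cluster 8 matrix genes lay on both sides of equality. Of 35 genes with at least 50 UMIs in the higher library, 17 had a BT2 to vehicle CPM ratio above 1, as 49.8% of all genes did, and the median ratio was 0.98. Fn1 had the lowest ratio, 0.50 (interval 0.43 to 0.58), at 197.3 CPM in vehicle and 98.8 CPM with BT2, but at cluster resolution 1.0 its ratio was 0.81, and Col8a1 (0.51) and Col4a1 (0.58) then lay lower. Col8a1 was at 3267 and 1830 CPM (0.56, 0.54 to 0.58), Col4a1 at 1421 and 897.2 CPM (0.63, 0.60 to 0.67), and Plod2 at 880.9 and 649.8 CPM (0.74, 0.69 to 0.79). Col6a3 was at 837.5 and 1173 CPM (1.40, 1.32 to 1.49), Fbln1 at 187.9 and 259.0 CPM (1.38, 1.21 to 1.57) and Lum, the highest ratio, at 7.69 and 18.9 CPM (2.45, 1.36 to 4.74). Dcn, far higher with BT2 in tissue, was level within this cluster at 894.1 and 902.9 CPM (1.01, 0.95 to 1.07), and Col14a1 was at 556.7 and 416.2 CPM (0.75, 0.69 to 0.81). Both ratios depended on the clustering. At cluster resolution 1.0 they were 0.85 for Dcn and 0.63 for Col14a1, and with both fibroblast-like clusters summed 1.19 and 0.82. Elsewhere Dcn had the highest ratio in neutrophil-like (8.33), cardiomyocyte-like (4.34), monocyte or macrophage-like (3.88), endothelial-like (3.72) and pericyte or smooth muscle-like nuclei (3.69). In Schwann cell-like, lymphocyte-like and dendritic cell-like nuclei other genes were highest. The part of background RNA in these ratios was not tested.

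In cluster 10, ratios above 1 prevailed. Of 34 genes 26 had one, against 44.6% of all genes, and the median ratio was 1.18. Eln was at 105.8 and 171.7 CPM (1.62, 1.45 to 1.82), Fbln1 at 37.5 and 58.9 CPM (1.57, 1.29 to 1.92) and Lox at 56.1 and 86.0 CPM (1.53, 1.31 to 1.80). Fn1 was at 149.1 and 186.3 CPM (1.25, 1.13 to 1.38), on the other side of 1 from cluster 8. Dcn, level in cluster 8, was at 176.8 CPM in vehicle and 231.0 CPM with BT2. P4ha1 was at 390.5 and 505.7 CPM (1.29, 1.22 to 1.38) and Plod2 at 1325 and 1694 CPM (1.28, 1.24 to 1.32), both lower in tissue with BT2. The lowest ratios were those of Col14a1 (0.80, 0.72 to 0.88), P4ha2 (0.84) and Loxl1 (0.87, 0.79 to 0.94). In monocyte or macrophage-like nuclei Fn1 was at 1234 and 866.8 CPM (0.70, 0.67 to 0.74) and Vcan at 1950 and 1990 CPM (1.02, 0.99 to 1.05). These nuclei made up 21% of the vehicle and 14.2% of the BT2 library. A low ratio of Fn1 was not particular to them or to cluster 8. Fn1 also had the lowest ratio in cardiomyocyte-like (0.32), neutrophil-like (0.46), lymphocyte-like (0.59), dendritic cell-like (0.61) and Schwann cell-like nuclei (0.21). In endothelial-like and in pericyte or smooth muscle-like nuclei other genes were lowest. The part of background RNA in these ratios was not tested.

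Levels in the 2 fibroblast-like clusters within a library lined up with the direction in tissue. Of the 18 genes lower in tissue with BT2, 15 in vehicle and 17 with BT2 were higher in cluster 10 than in cluster 8, with Col18a1, Col8a1 and Fn1 the exceptions in vehicle and Col18a1 with BT2. Of the 5 genes higher in tissue, the 4 with at least 50 UMIs in vehicle and all 5 with BT2 were higher in cluster 8. Dcn was 5.06 times and Fbln1 5.01 times as high in cluster 8 as in cluster 10 in vehicle, and Col12a1 and Fbln2 stood at 0.17 and 0.20 times. Genes in general lined up in this way too: 76.9% (vehicle) and 79.7% (BT2) of all genes lower in tissue were higher in cluster 10, and 69.1% and 72.3% of those higher in tissue were higher in cluster 8. The pattern is thus not shown to be particular to matrix genes.

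Summed over all nuclei, most matrix transcripts were higher with BT2, unlike in tissue. Of 36 genes 32 had a ratio above 1, against 43.6% of all genes, and the median ratio was 1.62 against 0.97. Of the 23 genes called in tissue at 24 h, 7 had the same direction over all nuclei and 16 the opposite one, and over all genes called in tissue 51.9% had the same direction. Fn1 was lower in both (nuclear ratio 0.53, interval 0.52 to 0.54), and Dcn was higher in both (2.31, 2.21 to 2.41). Lox, at -1.15 in tissue, had a nuclear ratio of 2.48 (2.2 to 2.8), and Col6a3, at -0.74, one of 2.15 (2.1 to 2.2). Vcan, at -1.86 in tissue, had 0.96 (0.95 to 0.98). The share of fibroblast-like nuclei differed between these libraries as given above, and its part in the ratios was not tested. Nothing states whether nuclei and tissue RNA came from the same hearts. Nuclear UMIs and polyadenylated RNA of whole tissue are also unlike measures, so opposite directions need not be a conflict.

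**Figure D5:**
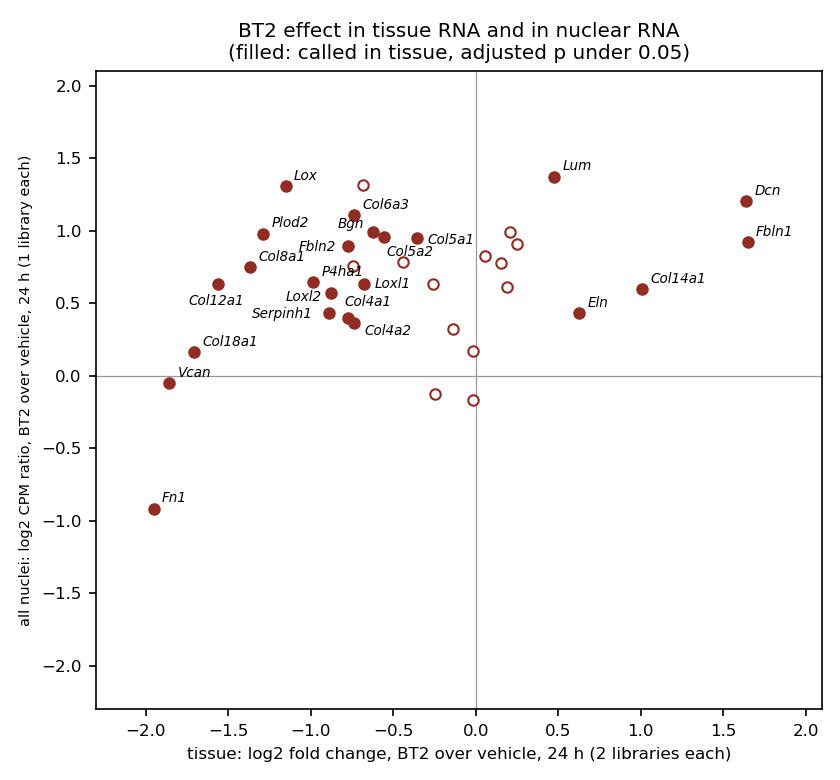
Log2 fold change of BT2 over vehicle in tissue at 24 h (horizontal, 2 libraries per group) against the log2 CPM ratio over all nuclei (vertical, 1 library per group) for 36 genes, filled where called in tissue. Fn1 and Vcan are the called genes below 0 on both axes, the 5 genes higher in tissue lie at the upper right, and 16 called genes lie at the upper left.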

How the data were processed

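Tissue values are whole read counts per gene deposited by the authors. Per the submitters' processing notes, reads were handled with Trim Galore, STAR and featureCounts on Rnor_6.0, and per the labels' protocols the libraries were stranded and poly(A)-selected. Their versions and the strand setting are not stated in the sources used here, so overlapping antisense genes may share counts. Nuclear UMI counts were deposited as Cell Ranger 8.0.1 matrices, per the file headers.

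Counts of 8 libraries were fitted with edgeR 4.0.16 in R 4.3.3 (filterByExpr, TMM scaling, 4 group means, robust quasi-likelihood F test), with 4 residual degrees of freedom and a biological coefficient of variation of 14.3%. A call is a Benjamini-Hochberg adjusted p under 0.05 over 15216 genes. The SE is the log2 fold change divided by the root of F. Replicates correlated at r 0.981 to 0.990 across genes. Same-numbered samples did not deviate together (r -0.0464 to 0.0965), so the numbers were not used as pairs. Replicate numbers follow the sample titles. The deposited column names skip the first number in every group, and whether a library was left out is not stated in the labels used here. Alternatives were RLE and upper quartile scaling, DESeq2 1.42.0, no filter, each pair of groups fitted alone, the replicate number as a block, and each library left out. On simulated counts, 56% of genes changed 2-fold and 84% of those changed 4-fold were recovered for the 4 h comparison (14899 genes), and 55% and 87% for that at 24 h (14880 genes). False calls were 14 of 154 at 4 h and 16 of 158 at 24 h, a larger share than the threshold of 0.05. Each simulation changed 200 genes, whereas 2495 and 6016 genes were called in the tissue data. These rates therefore need not hold for the tissue calls.

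Nuclei with at least 500 UMIs, at least 200 genes and at most 5% mitochondrial UMIs were kept and clustered with scanpy 1.11.5 in Python 3.11.15 (resolution 0.5) without 117 listed matrix genes, giving 22 clusters, of which 6 stayed unnamed. A name needed at least 3 markers of a type, each at 20 CPM or more and 2-fold over the other nuclei. It also needed a median Scrublet score of at most 0.1. By that score alone, cluster 1 (5 of 12 pericyte or smooth muscle markers, score 0.143) and cluster 6 (3 of 9 neutrophil markers, 0.110) stayed unnamed. The limits for naming were set after the clusters were seen. Scrublet called 1 and 0 doublets, so its calls did not work and doublets were not removed, although its scores were used in naming. Intervals are exact Poisson and binomial and cover counting error alone.

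The genes, their roles and the lists beside them were chosen with earlier results of these data known. Some of the genes given library by library at both times are a fixed set spread over the roles. Others were picked by their test results: in each role, the called gene with the smallest p in each direction at 4 h and at 24 h. Genes called for the difference of the BT2 effects were added too. The comparison of clusters 8 and 10, the marker sum without Gsn and the shares of unnamed clusters were added after the values were seen.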

Additional observations from a re-analysis of the deposited data

Results flagged for a closer look

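For 5 genes the effect of BT2 at 24 h differed from that at 4 h by the test of the difference itself. On the log2 scale the difference was 1.38 for Dcn, 1.29 for Fbln1, -0.99 for Fbln2, -0.79 for Bgn and -0.76 for Loxl1. Each call depended on single libraries. That of Dcn was lost without either BT2 library of 4 h (edgeR adjusted p = 0.0585 without replicate 1 and 0.0669 without replicate 2), without vehicle 24 h replicate 2 (0.088) and without BT2 24 h replicate 1 (0.0852). The calls of Fbln1, Fbln2, Bgn and Loxl1 were each lost without vehicle 4 h replicate 2, either BT2 library of 4 h, either vehicle library of 24 h or BT2 24 h replicate 1. The differences over these fits were 1.0 to 1.5 for Fbln1, -1.15 to -0.83 for Fbln2, -0.92 to -0.66 for Bgn and -0.84 to -0.68 for Loxl1.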

How the results depend on the processing

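Of the fold changes of named genes recomputed under an alternative, 1170 kept their direction and side of the threshold, 103 lost a call, 24 gained one and 14 changed sign. Upper quartile scaling gave 3 genes lower over time in vehicle and 0 with BT2 (5 and 2 with TMM), and Loxl2 over time with BT2 moved to 0.0021. Relative to TMM, that scaling moved the median of all genes by 0.112 and 0.088. DESeq2 called 12 genes lower at 4 h (5 with edgeR) and 9 with a lower difference of effects (3). Without a filter the difference was called for 1819 genes of all (1087). Groups fitted alone gave 0 higher, 3 lower and 621 of all genes at 4 h (2495), and 1 lower over time with BT2. The replicate block gave 1 gene higher at 4 h (2). With it, Col14a1 at 4 h (edgeR adjusted p = 0.0571) and the difference of Bgn (0.0527) were lost, and Fn1 at 4 h (0.0236) and its difference (0.0466) were gained.

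Without 1 library each, counts ranged at 4 h from 0 to 2 higher, 1 to 7 lower and 112 to 2796 of all genes, and at 24 h from 3 to 5, 14 to 19 and 2982 to 6522. For the difference they ranged from 0 to 2, 0 to 6 and 0 to 1443, over time in vehicle from 15 to 19, 2 to 5 and 4629 to 7100, and over time with BT2 from 4 to 17, 0 to 2 and 1025 to 4146. Of the 23 calls at 24 h, 16 held in all 8 such fits, and of the 7 at 4 h, 1 did. Signs changed in some of these fits, none of them called: at 4 h Col5a2 ranged from -0.43 to 0.087 and Col3a1 from -0.020 to 0.38, and the difference of effects ranged from -0.14 to 0.27 for Col3a1 (with -0.06 and -0.12), from -0.21 to 0.30 for Loxl2 (with -0.02 and -0.08), from -0.27 to 0.026 for Col4a1, from -0.10 to 0.31 for Eln and from -0.26 to 0.0036 for P4ha1. Over time, Loxl2 in vehicle ranged from -0.39 to 0.12 and Vcan with BT2 from -0.70 to 0.14.

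Of the nuclear ratios, 207 stayed within their interval, 60 moved outside it, and 9 whose interval excluded 1 crossed 1. Ratios whose interval held 1 are not among these 9 even where they crossed it, such as Dcn in cluster 8 at resolution 1.0 (0.85). In cluster 8 the 9 included Col1a1 (1.06 at resolution 1.0), Col3a1 (1.12) and Plod2 (1.11), the last pair with both fibroblast-like clusters summed. In cluster 10 they were Col8a1 (0.968) and Loxl2 (0.991) without the top 5% of UMIs, Fbln5 (0.975) at resolution 1.0, and Col8a1 (0.895), Fn1 (0.939) and Fbn1 (0.989) when summed. A summed ratio pools the nuclei of both clusters, so it is not a second reading of either cluster alone. The cause of the other changes was not tested. With 2 libraries a group, effects near the threshold depend on single libraries.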
